A study of Mus musculus with 26 samples.

Results

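Lungs of mice given the high dose of the carbon nanotube NM-401 were compared with lungs of mice given the high dose of the carbon nanotube Mitsui XNRi-7, called Mitsui here. The members are the 10 animals whose arrays are titled as high dose of either material, out of 25 animals on 26 arrays in the series. The groups were NM-401 high (5 animals, 128 µg per mouse) and Mitsui high (5 animals, 128 µg per mouse). NM-401 low and Mitsui low (5 animals each, 42.7 µg per mouse) and control (5 animals) served as background. All animals were MutaMouse, a transgenic strain with a reporter for mutations, female by the sample labels (male by the series design) and aged about 12 weeks. Nanotubes were suspended in mouse serum and instilled into the trachea in 4 weekly doses, and lungs were taken 56 days after the last of them. The labels do not say whether the dose is per instillation or in total. Controls are named vehicle controls in the series design and olive oil by gavage in the treatment text. RNA came from random pieces of whole lung, so fewer cells of a type and less RNA per cell cannot be told apart in any value below.

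Multiwalled carbon nanotubes are nested graphene cylinders, and long ones that reach the alveoli are taken up slowly and incompletely by macrophages. Persisting fibres are known in rodents for macrophage and neutrophil recruitment, type 2 inflammation, goblet cell change and scarring. Genes of the circadian clock, which take a large place below, form a loop in nearly every cell: the activators CLOCK and ARNTL (BMAL1) drive the Per and Cry repressors and the REV-ERB receptors Nr1d1 and Nr1d2. The bZIP activators Dbp, Tef and Hlf and the bZIP repressor Nfil3 form an output arm of that loop and bind the same DNA element.

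Values are log2 ratios from 2-colour arrays, with lung RNA of 1 animal in Cy5 over a universal mouse reference RNA in Cy3. Between 52.2% and 63.2% of probes were well above background in NM-401 high arrays, and between 47.2% and 58.9% in Mitsui high arrays. Correlations of an array with the others of its group had medians of 0.956 to 0.971 in NM-401 high and 0.964 to 0.976 in Mitsui high. Lung markers were high against the reference RNA: the mean log2 ratio of 22 alveolar type 2 cell markers was 4.75 ± 0.13 in NM-401 high and 4.65 ± 0.09 in Mitsui high (SD, n = 5 each). NM-401 high animal 2 stood apart in Xist, the RNA of the inactive X chromosome, with both probes not well above background (log2 ratios -1.41 and -3.04, against 0.41 to 0.93 in the other 4 NM-401 high animals). The Y-linked genes Ddx3y and Kdm5d were not well above background in this animal (-3.35 and -0.23, its Kdm5d the lowest) or in the other 4. Eif2s3y, at -1.96, lay within the range of the other 4, -2.38 to -1.84. Both probes of Uty, also Y-linked, were highest in this animal, at 0.176 and -0.197, but not well above background in it. The other 4 had -0.157 to 0.0295 and -0.432 to -0.276. The sex of this animal was not tested, as most of these Y-linked signals were near background. Because of its Xist, results are also given without that animal. NM-401 high arrays lay only in the first and second array column of a slide (3 and 2 arrays), and none lay on slide 2, while Mitsui high had 1, 1, 2 and 1 arrays in columns 1 to 4.

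At the high dose, genes of the circadian clock had the highest share of calls among the gene lists examined, 7 of 17. Nfil3, a transcriptional repressor, was 2.00-fold higher (95% interval 1.74 to 2.30) and Dbp, an activator that competes with it, was 4.83-fold lower (n = 5 each). NM-401 lungs also had higher Cxcl5, a neutrophil attractant, Ms4a7 and Hk3, genes of myeloid cells, and Il6, a cytokine, and lower Ccn2, a growth factor of connective tissue, and Acta2, smooth muscle actin. A feature is a gene read by its brightest probe, or an unnamed probe, and it was called at a Benjamini-Hochberg adjusted p under 0.05 in limma. Of 22950 features 182 were called, or 0.793%, with 106 higher (0.462%) and 76 lower (0.331%) in NM-401 high. The changes were moderate: 35 of the higher and 31 of the lower features passed 1.5-fold, and 8 and 6 passed 2-fold. The median absolute log2 difference was 0.51 over called features and 0.10 over all features. The animals of the groups did not overlap in 613 of all features (2.67%) and in 117 of the 182 called features.

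The number of calls moved widely with the animals and the model. Without NM-401 high animal 2 there were 913 calls, which held all 182, and without Mitsui high animal 5 there were 899, which also held all 182. Leaving out NM-401 high animal 1, 3 or 5 gave 83, 9 or 26 calls, and leaving out Mitsui high animal 2, 3 or 4 gave 6, 7 or 44. With array column as a block a single feature, Nfil3, was called, and with only these 10 animals in the fit 4 were: Nfil3, Dbp, Tef and Gm15772. With slide as a block 519 were called, 220 higher and 299 lower. The sign of all 182 was the same in each of the fits named so far. Within slides 1, 3 and 4, the 3 that hold both groups, 181 of the 182 had the same sign on all 3. The calls were made on these same animals, so this count is a description and no separate check. Over all features, the sign matched the main difference in 67.4%, 75.3% and 77.4% on slides 1, 3 and 4. Within these slides Nfil3 differed by 0.76, 1.16 and 1.22 and Dbp by -1.91, -2.65 and -2.31. With arrays centred on their median in place of loess no feature was called (1356 at an unadjusted p under 0.05 in limma), and 158 of the 182 kept their sign. The deposited matrix of the authors gave 262 calls, of which 110 were higher and 152 lower, against 58.2% higher in the main normalisation and 42% in the matrix.

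**Figure D1:**
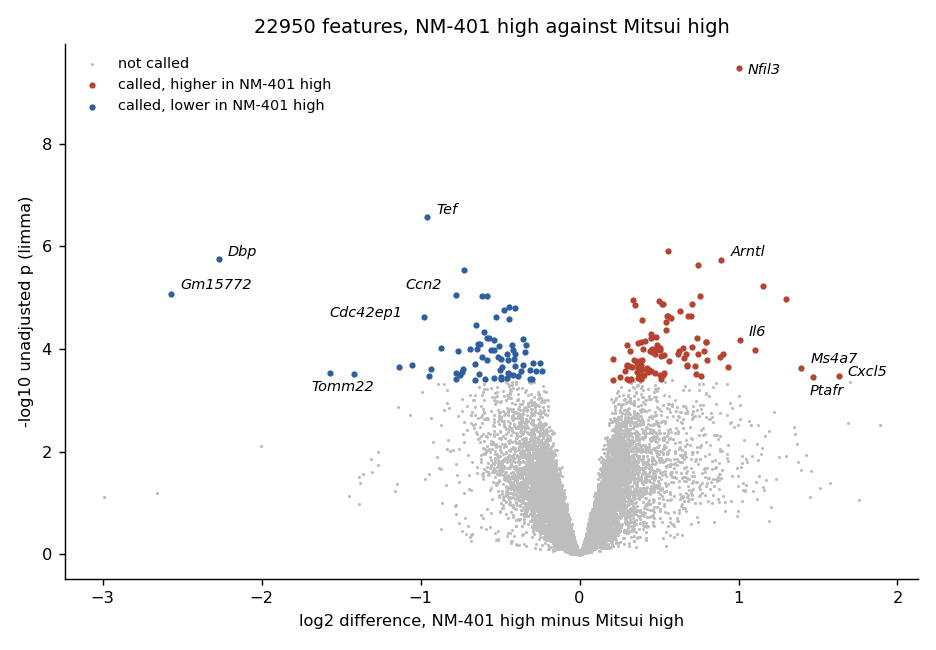
Log2 difference between NM-401 high and Mitsui high (x axis) against -log10 of limma's unadjusted p (y axis), 1 point per feature; red and blue points are the 106 features called higher and the 76 called lower in NM-401 high. Nfil3 stands above all other features, and Dbp and Gm15772 lie farthest left among the called ones.

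Of 17 clock genes tested, 2 rose, 5 fell and 10 did not pass the test in NM-401 high against Mitsui high, and the median log2 difference of the list was -0.39, against 0.0016 over all features. In the output arm, Dbp had log2 ratios of -1.75, -2.36, -1.22, -3.03 and -1.72 in NM-401 high, against 0.02, -0.06, 0.90, 0.30 and 0.13 in Mitsui high. The groups did not overlap, and the difference was -2.27 ± 0.36 (SE, adjusted p = 0.00831). A second Dbp probe gave -2.23. Tef, the paralogue of Dbp, lay between 0.07 and 0.22 in NM-401 high and between 0.95 and 1.33 in Mitsui high. Its difference of -0.96 ± 0.14 (SE, adjusted p = 0.00309) was far larger than the spread within either group. The third member of this family, Hlf, was lower by a smaller amount, -0.49 ± 0.12 (SE, adjusted p = 0.0494), and its animals overlapped. Nfil3, which binds the same element as a repressor, moved the other way, with -0.36, -0.23, -0.22, -0.07 and -0.13 in NM-401 high against -0.96, -1.32, -1.52, -1.25 and -0.98 in Mitsui high. Its adjusted p of 7.77e-06 was the smallest of all features.

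In the core loop, Arntl, the partner of CLOCK, was 1.86-fold higher in NM-401 high. Its log2 ratios were 0.45, 0.94, 0.64, 1.26 and 0.85, against 0.12, 0.14, -0.38, -0.33 and 0.14 in Mitsui high, with no overlap (difference 0.89 ± 0.14 SE, adjusted p = 0.00831). Nr1d2, a REV-ERB receptor that represses Arntl, lay between -1.22 and 0.01 in NM-401 high, against 0.42 to 0.53 in Mitsui high (difference -0.87 ± 0.19 SE, adjusted p = 0.0325). The period gene Per3 lay between -0.57 and -0.08 in NM-401 high and between 0.08 and 0.44 in Mitsui high (difference -0.58 ± 0.12 SE, adjusted p = 0.0325). Per3 and Hlf were picked for naming after their values were seen, to complete the 5 that fell. Other arms of the loop did not pass: Nr1d1 had -1.15 ± 0.32, Cry2 -0.43 ± 0.11, Per1 -0.56 ± 0.23 and Per2 -0.39 ± 0.14 (SE, adjusted p = 0.0771, 0.0553, 0.2 and 0.144). Clock itself differed by 0.08 ± 0.14 (SE, adjusted p = 0.809). Without NM-401 high animal 2, Dbp, Tef, Nfil3 and Arntl differed by -2.19, -0.96, 1.01 and 0.86.

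Promoters are shown for the 4 called clock genes whose windows match a searched letter pattern. Of these, Per3 and Tef fell and Arntl and Nfil3 rose in NM-401 high. They are taken from RefSeq on build GRCm38.p6 and run from 250 bases before to 50 after an annotated start, 5′ to 3′ on the strand of the gene, with matches in capitals. The patterns searched on both strands were CACGTG, TTANGNAA and TNGGTCA, where N is any base. CACGTG is the E-box, bound by CLOCK and ARNTL. TTANGNAA is a loose form of the D-box, bound by Dbp, Tef, Hlf and Nfil3. TNGGTCA is a loose form of part of the element bound by ROR and REV-ERB receptors. A match to a loose form need not fit the element itself. No match overlapped another. The windows are Per3 (chr4:151044616-151044915, minus strand), Tef at its second start (chr15:81811164-81811463, plus strand), Arntl at its second start (chr7:113207261-113207560, plus strand) and Nfil3 (chr13:52980990-52981289, minus strand).
Per3: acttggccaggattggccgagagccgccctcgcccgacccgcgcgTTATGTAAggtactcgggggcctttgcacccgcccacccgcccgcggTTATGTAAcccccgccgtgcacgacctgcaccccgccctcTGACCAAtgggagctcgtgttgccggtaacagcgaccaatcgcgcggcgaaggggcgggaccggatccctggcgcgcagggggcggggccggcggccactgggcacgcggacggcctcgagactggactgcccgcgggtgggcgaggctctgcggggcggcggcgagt
Tef: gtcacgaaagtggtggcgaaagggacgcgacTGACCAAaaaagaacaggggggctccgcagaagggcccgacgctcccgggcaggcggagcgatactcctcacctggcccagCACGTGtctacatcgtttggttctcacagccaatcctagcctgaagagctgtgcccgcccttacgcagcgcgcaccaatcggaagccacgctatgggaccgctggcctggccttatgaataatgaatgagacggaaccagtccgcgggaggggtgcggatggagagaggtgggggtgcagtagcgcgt
Arntl: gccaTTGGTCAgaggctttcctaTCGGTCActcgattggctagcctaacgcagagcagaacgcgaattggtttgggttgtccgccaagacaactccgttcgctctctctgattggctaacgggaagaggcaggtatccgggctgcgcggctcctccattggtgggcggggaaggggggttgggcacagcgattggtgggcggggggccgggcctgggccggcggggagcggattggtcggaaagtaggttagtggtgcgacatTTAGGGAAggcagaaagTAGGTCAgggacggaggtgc
Nfil3: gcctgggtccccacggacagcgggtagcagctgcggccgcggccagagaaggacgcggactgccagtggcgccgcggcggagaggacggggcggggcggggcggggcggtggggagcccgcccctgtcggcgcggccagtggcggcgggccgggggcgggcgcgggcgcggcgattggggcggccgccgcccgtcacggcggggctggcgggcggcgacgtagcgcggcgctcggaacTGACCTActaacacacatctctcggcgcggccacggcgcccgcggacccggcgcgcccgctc
The Per3 window holds 2 TTANGNAA matches and 1 TNGGTCA match on the opposite strand, and the Tef window 1 E-box and 1 TNGGTCA match. The Arntl window holds 3 TNGGTCA matches and 1 TTANGNAA match, and the Nfil3 window 1 TNGGTCA match. The windows of Dbp, Nr1d2 and Hlf hold none of these letters. Of 32841 promoter windows of the same length, 7.15% hold the E-box, 11.5% TTANGNAA and 11% TNGGTCA. Among the 9 windows of the 7 called clock genes the numbers are 2, 2 and 5. These windows are not independent: both with an E-box are starts of Tef. The 5 with TNGGTCA are 2 overlapping windows of Arntl, which share matches, and 1 each of Tef, Per3 and Nfil3. A match is a run of letters and was not tested as a binding site.

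The clock difference was also present at the low dose, in other animals. There, 14 of the 17 clock genes had the same sign as at the high dose, against 48.6% of all 22950 features, and 9 of them had an unadjusted p under 0.05, all in the same direction. No feature passed the adjusted threshold at the low dose (0 of 22950, or 0%, in limma, with 1287 at an unadjusted p under 0.05). Dbp had -2.45, -3.05, -2.04, -1.97 and -2.65 in NM-401 low, against -0.84, -0.90, -0.54, 0.01 and -0.37 in Mitsui low. The groups again did not overlap, and the difference was -1.91 ± 0.36 (SE, adjusted p = 0.0987). Of the 7 clock genes called at the high dose, 7 kept their sign at the low dose and 5 did not overlap there in the same direction, against 147 of all 22950 features (0.641%). Across the 17 genes, Pearson's r between the differences at both doses was 0.94, and across all features it was 0.04, given as a description across genes on shared arrays. Of the 175 called features that are not clock genes, 71 (40.6%) had the same sign at the low dose. None of the 17 clock genes was called in the interaction of material with dose. Nfil3 came nearest, with a difference of 1.00 at the high dose and 0.29 at the low dose (interaction 0.71 ± 0.14 SE, adjusted p = 0.0578 in limma). Tef differed by -0.96 and -0.49 (interaction -0.47 ± 0.19 SE, adjusted p = 0.3), and its animals overlapped at the low dose.

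Against the control, the clock genes placed the materials differently. Dbp averaged -2.02 ± 0.70 in NM-401 high, 0.26 ± 0.39 in Mitsui high and -1.97 ± 0.97 in control lungs (SD, n = 5 each), so that Mitsui high stood apart from control (adjusted p = 9.98e-05) and NM-401 high did not pass (adjusted p = 0.944). Arntl followed the same pattern in reverse, at 0.83 ± 0.31, -0.06 ± 0.27 and 0.92 ± 0.18. Tef and Nfil3 did not: Nfil3 averaged -0.20 ± 0.11 in NM-401 high, -1.21 ± 0.24 in Mitsui high and -0.98 ± 0.18 in control, where NM-401 high differed from control (adjusted p = 1.33e-06) and Mitsui high did not pass (adjusted p = 0.104). Of the 7 called clock genes, 3 were called against control in NM-401 high, where 34.8% of all features were, and 4 in Mitsui high, where 23.7% were, so the first share is near that of all features. Comparisons with control share the same 5 control animals. The labels give a light and dark cycle but no hour at which the lungs of each group were taken, and the part of that hour in these values was not tested.

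**Figure D2:**
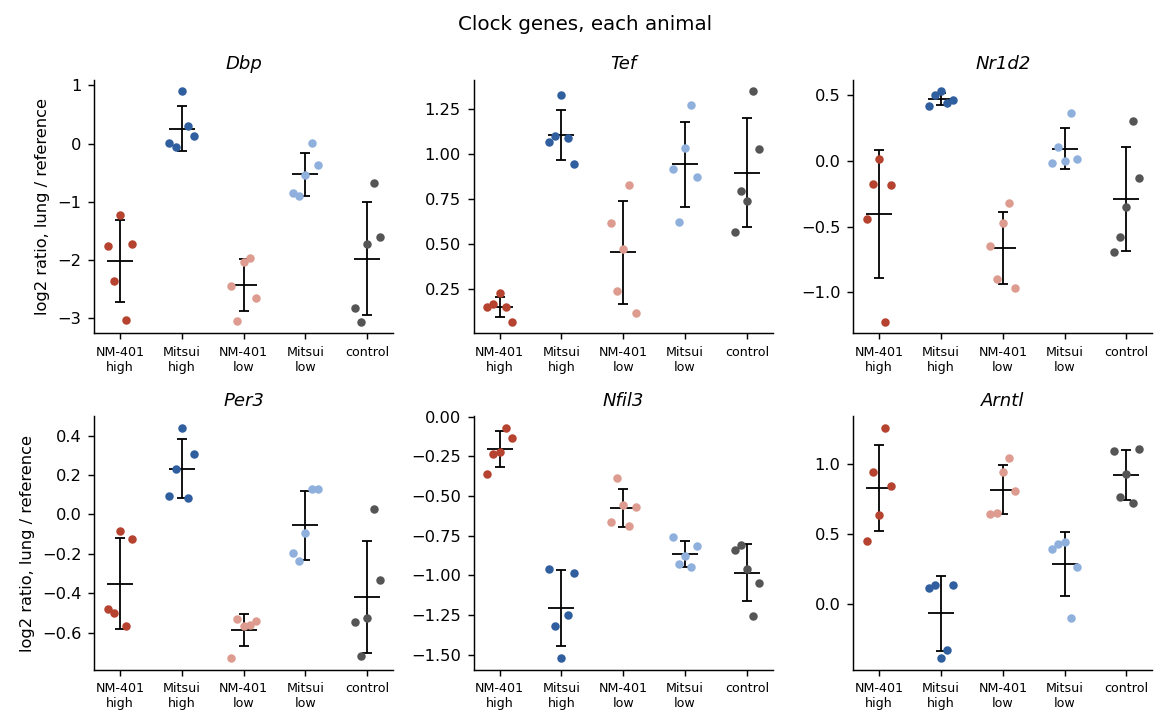
Log2 ratio of lung over reference RNA (y axis) for 6 clock genes in each animal of the 5 groups (x axis); each point is an animal, and the bar and whiskers are the mean and SD. Dbp, Nr1d2, Per3, Nfil3 and Arntl separate the materials at both doses, and for Dbp 4 of 5 control animals lie between -3.06 and -1.60, beside the NM-401 groups, and 1 at -0.67, within the range of Mitsui low.

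**Figure D3:**
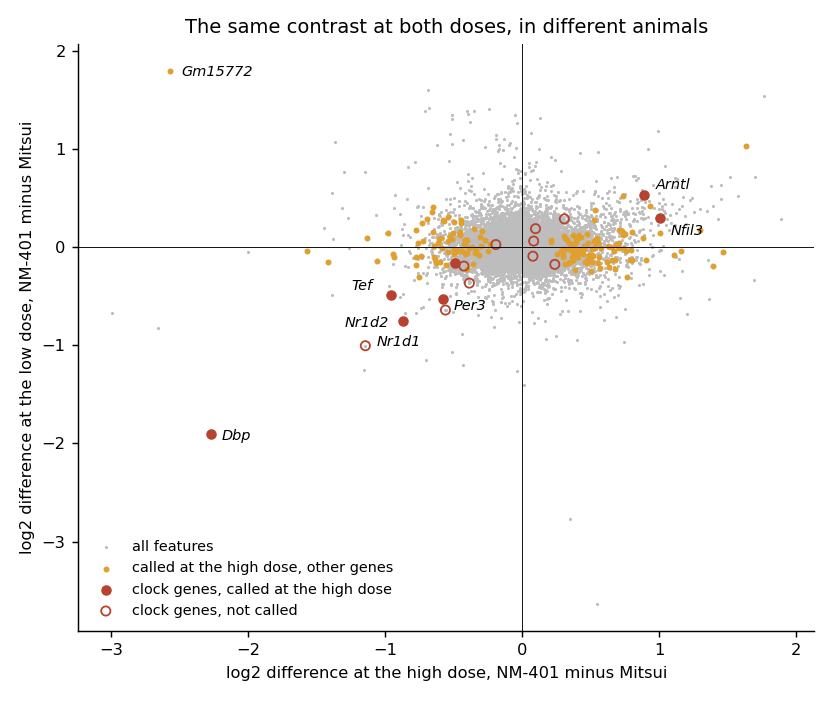
Log2 difference between NM-401 and Mitsui at the high dose (x axis) and at the low dose (y axis), 1 point per feature, with clock genes in red (filled where called) and other features called at the high dose in orange. Clock genes run along the diagonal (r = 0.94 over 17 genes), while the other called features lie near 0 at the low dose, apart from a few such as Gm15772 and Cxcl5.

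In the list of monocyte and interstitial macrophage genes 2 of 21 rose, none fell and 19 did not pass, with a median log2 difference of 0.47 and 21 of 21 positive. At the low dose the median of the same list was -0.07, with 6 of 21 positive. Ms4a7, a tetraspanning protein of macrophages, had 3.52, 2.57, 4.31, 3.75 and 4.04 in NM-401 high, against 2.91, 1.52, 1.54, 2.39 and 2.86 in Mitsui high. Animals overlapped, and the difference was 1.39 ± 0.32 (SE, 2.63-fold, adjusted p = 0.0434). Both groups stood far above the control mean of -0.81 ± 0.40 (SD, n = 5). Tgfbi, a matrix protein made by macrophages, had 4.38, 4.21, 4.78, 4.14 and 4.75 in NM-401 high and 3.74, 3.71, 3.38, 3.83 and 4.07 in Mitsui high, with no overlap (difference 0.71 ± 0.13 SE, adjusted p = 0.0157). Mitsui high lay near the control mean of 3.66 ± 0.22 (SD, n = 5) for this gene.

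Among rises outside the lists, Hk3, a hexokinase of myeloid cells, had 2.03, 1.09, 2.42, 1.80 and 2.13 in NM-401 high, against 1.01, 0.36, 0.35, 0.75 and 1.47 in Mitsui high (2.15-fold, adjusted p = 0.0325). Ptafr, the receptor for platelet-activating factor, spread widely in NM-401 high, at 2.13, 0.67, 2.80, 2.43 and 1.26, against 0.56, -0.10, 0.37, 0.44 and 0.68 in Mitsui high (2.77-fold, adjusted p = 0.0487). Its signals were well above background in 4 of 5 Mitsui high animals and in no control animal. Fcgr2b, the inhibitory receptor for IgG, lay between 1.09 and 1.46 in NM-401 high and between 0.02 and 1.05 in Mitsui high, without overlap (1.68-fold, adjusted p = 0.033). Slc29a3, a lysosomal nucleoside transporter, was 1.69-fold higher and did not overlap either (adjusted p = 0.0157). Csf2rb2, a receptor subunit for interleukin 3, was 1.74-fold higher (adjusted p = 0.0377); it has a near-identical paralogue, Csf2rb, that its probe may also detect. Without NM-401 high animal 2, Ms4a7, Hk3 and Ptafr differed by 1.66, 1.31 and 1.76.

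Macrophage lysosome and lipid-laden macrophage genes had 0 of 31 called, a median of 0.41 and 17 genes at an unadjusted p under 0.05, with Npc2, a lysosomal cholesterol carrier, at 0.49 ± 0.12 (SE, adjusted p = 0.0585). At the high dose 30 of these 31 genes were positive, but at the low dose 3 were, with a median of -0.175. Their list mean per animal ran from 2.54 to 3.05 in NM-401 high, from 2.11 to 2.75 in Mitsui high and from 0.83 to 1.07 in control. Phagocyte oxidase and nitric oxide genes had 1 of 16 called, Duox1, an oxidase of epithelia, at 0.38 ± 0.09 (SE, adjusted p = 0.0494), and a median of 0.38. Scavenger and particle uptake receptors had 0 of 18 called and a median of 0.20. Resident alveolar macrophage genes had 0 of 21 called and a median of -0.10, and neutrophil genes 0 of 18 and -0.02. Their list means were 3.13 ± 0.34 in NM-401 high and 3.27 ± 0.09 in Mitsui high for resident macrophages, and 2.20 ± 0.11 and 2.16 ± 0.27 for neutrophils (SD, n = 5 each).

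Cytokines and chemokines showed several called rises and no called fall. In the interleukin 1 and interleukin 6 family list 3 of 22 rose, with a median of 0.23. Il6, the acute phase cytokine, had -0.49, -0.37, 0.21, -0.01 and 0.32 in NM-401 high and -1.03, -1.35, -1.04, -1.56 and -0.38 in Mitsui high (2.01-fold, adjusted p = 0.0325), against -2.22 ± 0.15 in control (SD, n = 5). Only Mitsui high animal 5 reached the range of NM-401 high. In control, Il6 signals were well above background in 2 of 5 animals. Il1rn, the natural antagonist of interleukin 1, lay between 1.31 and 1.93 in NM-401 high and between 0.51 and 1.27 in Mitsui high, without overlap (1.60-fold, adjusted p = 0.0424). Osm, a relative of interleukin 6 made by myeloid cells, lay between 0.37 and 0.67 against -0.08 and 0.29, also without overlap (1.33-fold, adjusted p = 0.0325). The mean of this list ran from 1.04 to 1.32 in NM-401 high and from 0.80 to 1.01 in Mitsui high.

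Among CXC chemokines 2 of 14 were called higher and none lower, with a median of 0.14 and 8 of 14 positive. Cxcl5, an attractant of neutrophils, had the largest rise with a symbol, 3.10-fold (95% interval 1.77 to 5.41, adjusted p = 0.0478). It had -0.66, 1.08, 0.70, 1.32 and -0.01 in NM-401 high and -1.65, -1.79, -1.12, -1.33 and 0.17 in Mitsui high. Mitsui high animal 5 overlapped with NM-401 high here too. Cxcl3, another neutrophil attractant, was 1.39-fold higher (adjusted p = 0.0325), with signals well above background in 5 NM-401 high and 3 Mitsui high animals. CC chemokines had 0 of 14 called and a median of 0.17, although the monocyte attractants Ccl7 and Ccl12 differed by 1.35 ± 0.43 and 1.00 ± 0.30 (SE, adjusted p = 0.109 and 0.0942). Of these 14, 9 were positive. In 1 of them NM-401 high lay wholly below Mitsui high, as in 1.35% of all features, and in 0 wholly above, against 1.32%. Acute phase reactants had 1 of 22 called, which was Il1rn again, and a median of 0.19. Type 2 response genes had 0 of 23 called (Il33, an alarmin, 0.71 ± 0.20 SE, adjusted p = 0.0822), and complement genes had 0 of 22.

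Interferon-stimulated genes had the largest list median, 0.87, with 28 of 28 positive and 0 called (7 at an unadjusted p under 0.05). Their differences ran from 0.15 to 1.58. At the low dose 28 of 28 were positive too, with a median of 0.35 and 0 called. There the list mean spread widely within both groups, which overlapped. It was 0.56, 0.49, 2.2, 2.1 and 2.34 in NM-401 low animals 1 to 5 and 1.33, 0.44, 1.02, 2.28 and 0.96 in Mitsui low animals 1 to 5. The list mean was 1.17, 0.45, 2.90, 2.58 and 2.34 in NM-401 high animals 1 to 5 and 1.31, 0.55, 0.98, 0.96 and 1.39 in Mitsui high animals 1 to 5. Thus 3 NM-401 high animals lay above all Mitsui high animals and 2 lay within or below their range, and animal 2, whose Xist was not above background, was the lowest. Zbp1, a sensor of nucleic acid, had 1.00, 0.50, 2.67, 2.18 and 2.38 against 1.11, 0.04, 0.47, 0.50 and 1.33, and its difference of 1.06 ± 0.41 (SE, adjusted p = 0.18) did not pass the test. T and natural killer cell genes had 0 of 23 called, B cell and plasma cell genes 0 of 20 and antigen presentation genes 0 of 15.

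**Figure D4:**
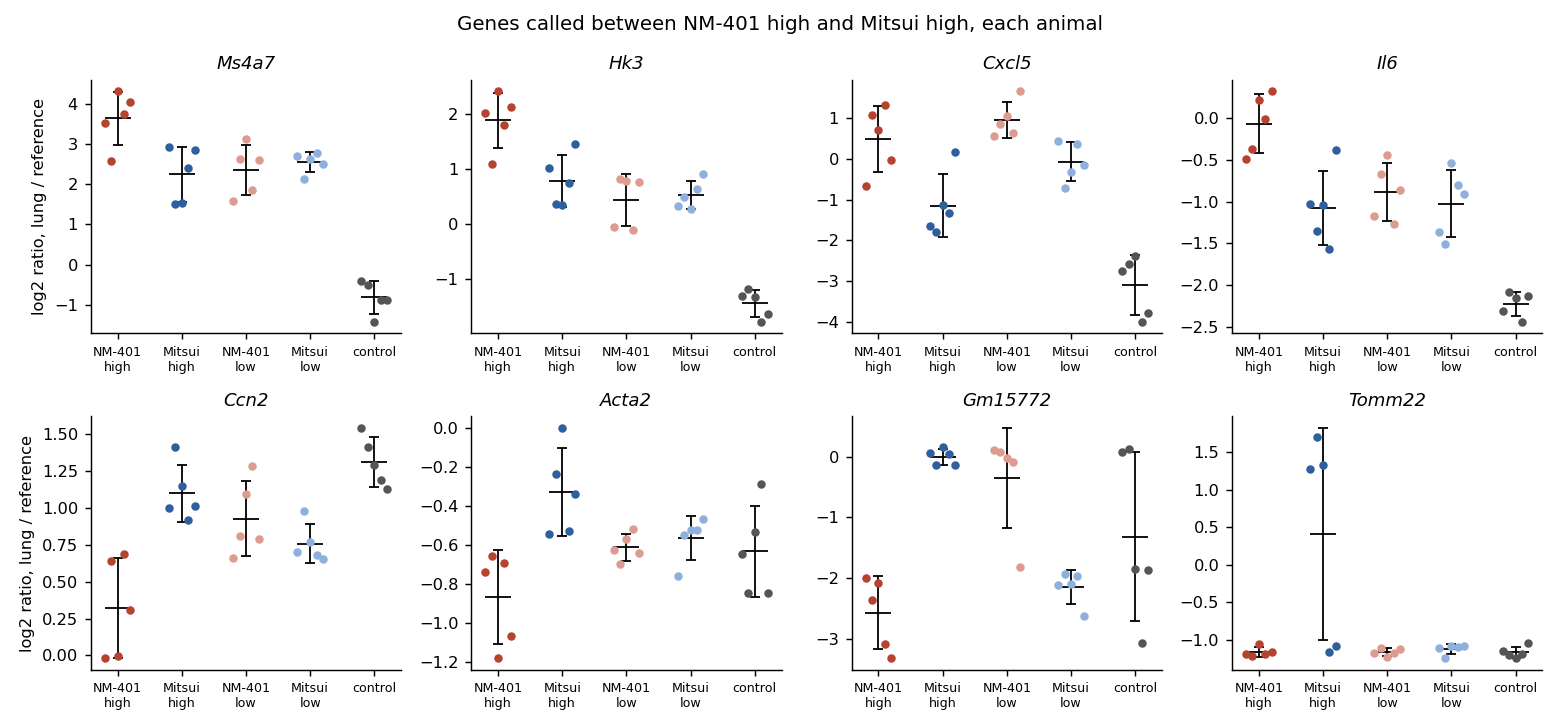
Log2 ratio of lung over reference RNA (y axis) for 8 called genes in each animal of the 5 groups (x axis); points are animals, and the bar and whiskers are the mean and SD. Ms4a7, Hk3 and Il6 have their highest mean in NM-401 high and Cxcl5 in NM-401 low, Ccn2 and Acta2 have their lowest mean in NM-401 high, and Gm15772 and Tomm22 fall into separate levels.

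Genes of connective tissue, vessels and alveolar epithelium included falls. In the profibrotic and BMP signalling list 3 of 38 fell and none rose, with a median of -0.08. Ccn2, the connective tissue growth factor, had -0.02, 0.64, 0.00, 0.69 and 0.31 in NM-401 high and 1.00, 1.41, 1.15, 0.92 and 1.01 in Mitsui high. There was no overlap, and the difference was -0.78 ± 0.14 (SE, 1.71-fold lower, adjusted p = 0.0157). Mitsui high lay near the control mean of 1.31 ± 0.17 (SD, n = 5). Pdgfb, a platelet-derived growth factor chain, was 1.39-fold lower (adjusted p = 0.0173), but a second, dimmer probe differed by -0.11.

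Acta2, smooth muscle actin, had -0.74, -0.66, -1.18, -0.69 and -1.07 in NM-401 high and -0.54, -0.23, 0.00, -0.53 and -0.34 in Mitsui high, without overlap (difference -0.54 ± 0.12 SE, adjusted p = 0.0325). The control mean of -0.63 ± 0.23 (SD, n = 5) lay between the groups. It was the only call among 17 smooth muscle contractile genes, whose median was -0.29. Igfbp2, a binding protein of insulin-like growth factors made in alveolar type 1 cells, was 1.69-fold lower (adjusted p = 0.0468), and a second probe gave -0.72. It was the only call among 21 alveolar type 1 markers, whose median was -0.20. The transitional alveolar epithelial list had Sfn, a 14-3-3 protein of epithelia, higher by 0.48 ± 0.11 (SE, adjusted p = 0.0462) and Ccn2 lower. Klf2, a transcription factor of vessels, was 1.57-fold lower (adjusted p = 0.0499), with -1.23 against control in NM-401 high and -0.58 in Mitsui high on the log2 scale.

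Endothelial markers had 0 of 31 called with a median of -0.22, fibroblast markers 0 of 25 with -0.19 and ciliated cell markers 0 of 21 with -0.38. The ciliated list mean was 2.73 ± 0.34 in NM-401 high and 3.08 ± 0.22 in Mitsui high (SD, n = 5 each), with the groups overlapping. Collagens and other matrix genes had 0 of 36 called and a median of 0.05, and goblet cell and mucin genes 0 of 20 and 0.11. Cardiac muscle markers, which can enter with large vessels, had 0 of 20 called and a median of -0.14, and red blood cell transcripts 0 of 10 and -0.06. The list means of cardiac markers were 0.83 ± 0.53 in NM-401 high and 1.04 ± 0.18 in Mitsui high (SD, n = 5 each), and their part in the falls was not tested. When arrays were median centred in place of loess, the median of all features stood at 0.33 and most negative list medians turned positive. Relative to that shift the smooth muscle, ciliated, endothelial and fibroblast medians were -0.27, -0.33, -0.13 and -0.14. The medians of alveolar type 1 markers and of profibrotic and BMP signalling genes came closer to that of all features, at -0.058 and -0.064.

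Stress and damage genes gave isolated calls. Atf3, a stress-induced transcription factor, had 1.17, 0.84, 1.74, 1.30 and 1.74 in NM-401 high and 0.59, 0.01, 0.07, 0.34 and 1.24 in Mitsui high (1.87-fold, adjusted p = 0.033). With Klf2 it made up the calls among 20 immediate early and heat shock genes. Gpx1, a glutathione peroxidase, was 1.32-fold higher (adjusted p = 0.0472), the only call among 34 NRF2 targets and antioxidant genes. Gadd45g, a growth arrest gene, was 1.37-fold higher (adjusted p = 0.0325), the only call among 29 p53 target genes, whose median was -0.04. DNA repair and damage signalling genes had 0 of 43 called and a median of 0.01, and mitotic and S-phase genes 0 of 32 and 0.10. Across all 42 lists, 25 of 881 tested genes were called (2.84%, against 0.793% of all features), 14 higher and 11 lower, and 29 lists held no call. The lists were drawn up with earlier results of these data known, so this excess is a description.

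Most of the named calls stood outside any list: of 146 called features with a symbol, 121 were in none. Several of the largest falls rested on separate levels rather than a shift. Gm15772, a predicted gene, had -2.01, -2.37, -2.08, -3.09 and -3.32 in NM-401 high against 0.06, -0.13, 0.16, 0.04 and -0.14 in Mitsui high (5.93-fold lower, adjusted p = 0.0157). At the low dose the levels were turned round, with 4 of 5 NM-401 low animals between -0.09 and 0.10 and all 5 Mitsui low animals between -2.62 and -1.93. Control animals fell on both levels, at 0.07, 0.13, -1.86, -3.07 and -1.87.

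Tomm22, a mitochondrial import receptor, stayed near its control level of -1.17 ± 0.07 (SD, n = 5) in all NM-401 high animals, at -1.19, -1.21, -1.05, -1.20 and -1.16. In Mitsui high, animals 1 to 3 had 1.28, 1.70 and 1.33 while animals 4 and 5 had -1.17 and -1.09, so the call (adjusted p = 0.0462) came from 3 animals. Cdc42ep1, an effector of the small GTPase CDC42, was high in the same 3 Mitsui high animals, at 2.14, 2.20 and 1.98, against 0.98 and 0.83 in the other 2. In NM-401 high it lay between 0.49 and 0.72 (adjusted p = 0.0183), below the control mean of 1.51 ± 0.09 (SD, n = 5). Both genes lie on chromosome 15 in the annotation. Anp32a, a nuclear phosphoprotein, was 2.67-fold lower by its brightest probe (adjusted p = 0.0464), but its other probe differed by -0.12 and did not follow it (r = 0.058 across the 10 animals, a description).

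Further calls outside the lists included enzymes and secreted factors. Ppp1r3c, which targets protein phosphatase 1 to glycogen, had 3.64, 3.16, 3.25, 3.70 and 3.59 in NM-401 high and 2.73, 2.77, 2.52, 2.83 and 2.75 in Mitsui high, without overlap (1.68-fold, adjusted p = 0.00887). Here Mitsui high lay below the control mean of 3.29 ± 0.14 (SD, n = 5) and NM-401 high did not differ from it beyond the test (adjusted p = 0.293). Klk1, tissue kallikrein, was 1.91-fold higher (adjusted p = 0.0425), and Zc3h12d, of a family of RNA-degrading proteins, 1.84-fold higher (adjusted p = 0.036). Cyp2a4, a steroid-hydroxylating cytochrome P450, was 1.91-fold lower (adjusted p = 0.0436), although transcripts of its near-identical paralogue Cyp2a5 may bind the same probe. Agrp, the agouti-related peptide, and Casc1 were 1.93-fold and 2.19-fold lower (adjusted p = 0.0472 and 0.0425).

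Measured against control lungs, NM-401 high lay farther out than Mitsui high in most called features. It was the farther group in 154 of 182 called features (84.6%) and in 62.8% of all features. The share was 95.3% among the called higher features and 69.7% among the called lower ones, the latter nearer that of all features. Of the 106 features higher in NM-401 high, the control mean was below both groups in 87, between them in 16 and above both in 3. Of the 76 lower features, control was above both in 48, between in 18 and below both in 10. NM-401 high against control gave 7976 calls (34.8%; 18.4% higher and 16.4% lower) and Mitsui high against control 5447 (23.7%; 12.7% higher and 11% lower), from the same 5 control animals. Among the 106 higher features, 102 were called against control in NM-401 high and 58 in Mitsui high, and among the 76 lower features 57 and 42. The called features were picked on the values of these same high dose animals, so their distances from control are a description.

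The difference between the materials itself changed with dose in 7 features (0.0305%), by limma's interaction of material with dose. In 5 of them (0.0218%) NM-401 minus Mitsui was higher at the high dose than at the low dose, and in 2 (0.00871%) lower. Hspa5, a chaperone of the endoplasmic reticulum, averaged 0.55 ± 0.05 in NM-401 high, 0.36 ± 0.13 in Mitsui high, 0.18 ± 0.14 in NM-401 low and 0.58 ± 0.12 in Mitsui low, against 0.10 ± 0.09 in control (SD, n = 5 each). NM-401 minus Mitsui was thus 0.19 at the high dose and -0.40 at the low dose, a difference of 0.60 ± 0.105 (SE, adjusted p = 0.0381). Manf, a secreted factor of the endoplasmic reticulum, gave 0.22 and -0.48, a difference of 0.70 ± 0.11 (SE, adjusted p = 0.0332). Anxa4, a calcium-dependent membrane-binding protein, gave 0.44 and -0.48, a difference of 0.92 ± 0.16 (SE, adjusted p = 0.0381). Dnajb9, a cochaperone of Hspa5, gave 0.16 and -0.37 and was picked for naming after its values were seen, since it and an unnamed probe complete the 5. None of these 4 genes was called at the high dose alone. Gm15772, described above, and Dock6, an activator of small GTPases, were the 2 in the other direction, and Dock6 had -0.45 ± 0.08 at the high dose (SE, adjusted p = 0.0164) and 0.24 at the low dose. With NM-401 high animal 2 left out, 1 feature was called in the interaction.

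**Figure D5:**
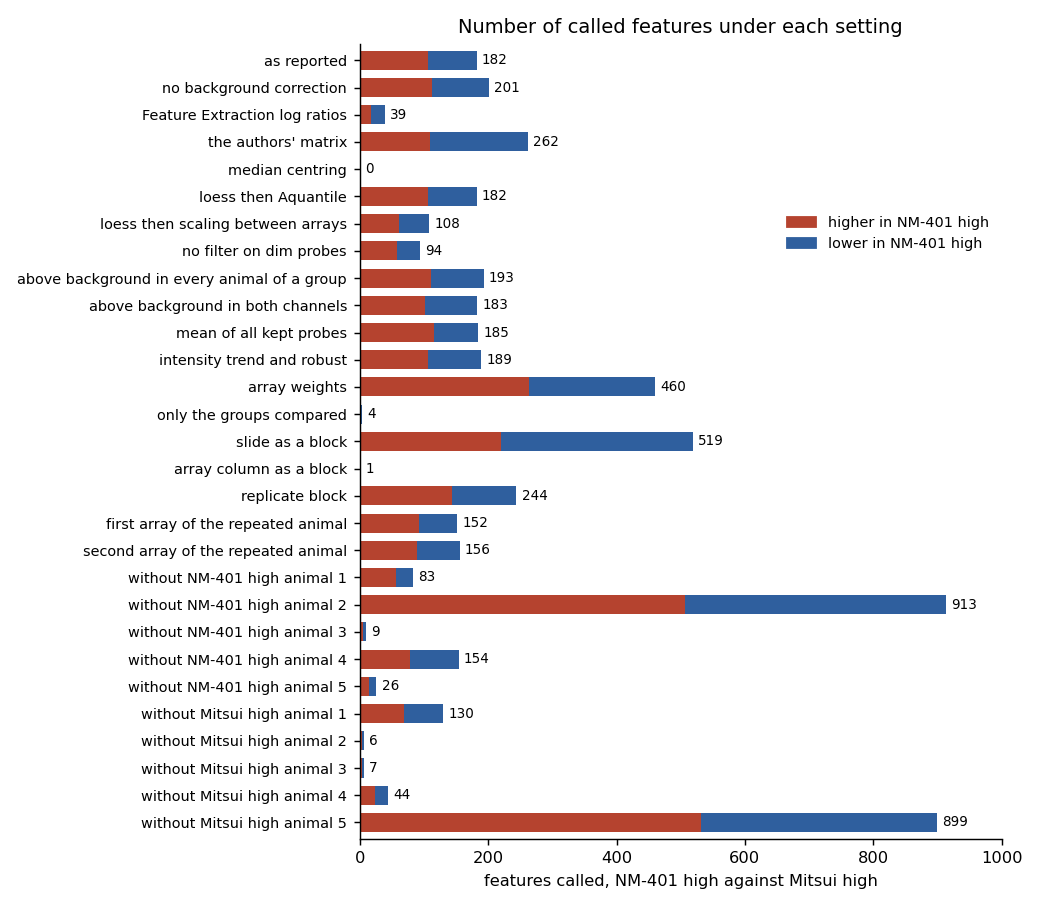
Number of features called between NM-401 high and Mitsui high (x axis) under each setting of the analysis (rows), split into those higher (red) and lower (blue) in NM-401 high. The count of 182 as reported lies between 0 under median centring and 913 without NM-401 high animal 2.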

How the data were processed

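Lung RNA of 25 animals was measured on 26 2-colour Agilent arrays over 4 slides, and an animal hybridised on a pair of arrays was averaged. Spot intensities were extracted by the authors with Feature Extraction 11.0.1.1, per the file headers, and were deposited without background subtraction (median pixel signals, used here). The log10 ratios in the same files are background-subtracted and dye-normalised, per the file headers. The log2 values of the authors' deposited matrix come with no stated scale or direction. Set against the arrays over 21011 probes, they gave slopes of 0.999 to 1.05 and correlations of 0.996 to 0.999 with log2 of Cy5 over Cy3, with column medians of -0.04 to -0.0181, and how they were centred is not given in the sources used here. Flags of 0 and 1 are those of the deposited files.

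Signals were corrected with limma 3.58.1 in R 4.3.3 (normexp, offset 50) and loess within each array, and spots flagged as outliers (0.461%) were left out. Probes well above background in Cy5 in at least 4 animals of a group were kept, 30466 of 55681, and the brightest probe of each gene gave 22950 features, of which 14838 carry a symbol matched through RefSeq (GRCm38.p6). One linear model over the 5 groups, with 20 residual degrees of freedom, was moderated by empirical Bayes and adjusted by Benjamini-Hochberg over all features. The number of arrays limits the precision. No label says whether animals of a group were handled separately after dosing, so p-values measure the spread between these animals.

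The animals compared and the gene lists were chosen with earlier results of these data known. Genes named are the 15 largest rises and 10 largest falls among called features with a symbol, called members of each list or those with its smallest p, and the largest interactions; a few that this rule picked are not reported here. Deviations of same-numbered high dose animals from their group means correlated at 0.014, 0.30, -0.0013, 0.095 and 0.23 for animals 1 to 5. Differently numbered animals were not correlated for comparison, and the numbers were not taken as pairs. Alternatives changed the background correction, normalisation, filter, probe choice, variance model, blocks and animals.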

Additional observations from a re-analysis of the deposited data

Results flagged for a closer look

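An animal far from the other 4 of its group was found in 11 of 278 groups of 5 values tested, while chance alone flags about 1 in 20, and the cause was not tested in any of them. In NM-401 high, animal 3 stood apart for Casc1 at 1.24, animal 2 for Fam183b, a gene of ciliated cells, at 6.24 and for Krt14, a basal keratin, at 2.16, and animal 4 for Egfl7, a gene of endothelium, at 4.71 (log2 ratios). In Mitsui high, animal 1 stood apart for Anp32a at 1.79 and for Il13ra1, a receptor chain of interleukin 13, at -1.21. Mitsui high animal 5 stood apart for Tnc, a matrix protein, at -0.38, for Cyp4b1, an enzyme of club cells, at 6.37, and for the mean of the type 2 response genes at 2.54. Mitsui high animal 2 stood apart for the mean of the ciliated cell markers at 3.47 and of the p53 target genes at 0.0048.

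The difference between NM-401 and Mitsui was not the same at both doses in 7 features, by limma's interaction term (high dose minus low dose, adjusted p of 0.0124 to 0.0381). The interaction was 0.915 for Anxa4, 0.696 for Manf, 0.596 for Hspa5, 0.527 for Dnajb9, 0.501 for a probe without a gene name, -0.687 for Dock6 and -4.36 for Gm15772.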

How the results depend on the processing

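The 182 calls between NM-401 high and Mitsui high (106 higher, 76 lower) became 39 (17 higher, 22 lower) with Feature Extraction log ratios, 108 (61 and 47) with scaling between arrays, 94 (58 and 36) with no filter on dim probes, and 460 (264 and 196) with array weights. They became 519 (220 and 299) with slide as a block, 1 (1 and 0) with array column as a block, 4 (1 and 3) with only the groups compared and 0 (0 and 0) with median centring. The authors' matrix gave 262 (110 and 152). Leaving out 1 animal at a time gave 6 to 913 calls, with 4 to 531 higher and 2 to 406 lower. The other alternatives gave 152 to 244 calls, and loess followed by Aquantile leaves ratios as they were by its construction. All 182 kept their sign where they were tested under every alternative except median centring, which kept 158.

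At the low dose the 0 calls became 1 with Feature Extraction log ratios, 2 with array weights and 1 with only the groups compared, and stayed at 0 with each animal left out. In the material by dose interaction the 7 calls became 11 with no background correction, 16 with Feature Extraction log ratios, 14 in the authors' matrix, 0 with median centring, 2 with scaling, 3 with no filter on dim probes, 11 when both channels were filtered, 127 with array weights, 2 with only the groups compared, 103 with slide as a block, 1 with array column as a block and 1 to 197 with an animal left out. For NM-401 high versus control median centring gave 1064 calls and for Mitsui high versus control 121, and leaving out an animal gave 6943 to 7746 and 4407 to 5448.

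Under the replicate block, with animals matched by number, 244 features were called (144 higher, 100 lower; 164 of the 182 among them) and 1 in the interaction. Median centring moved the median of all features to 0.33, and there Pdgfb, Acta2 and Dock6 changed sign, to 0.026, 0.020 and 0.045, which relative to that median are -0.30, -0.31 and -0.28. Of 39 named called genes, 39 were called without NM-401 high animal 2, 39 without Mitsui high animal 5, 37 with slide as a block, 4 with only the groups compared and 1 with array column as a block. Where values moved, the cause was not tested. Signals near background limit Ptafr, Cxcl3, Osm and Duox1, and Il6 in control lungs.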
